A study of Homo sapiens with 48 samples.

Results

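The genes described here encode enzymes that remove superoxide and peroxides in cells, and regulators of their supply of reducing power. They are CAT, SOD1, SOD2, PRDX1, PRDX2, GPX1, GPX4, TXNRD1, HMOX1 and GCLM. They were chosen by name, and every probe set annotated to 1 of these 10 genes was taken, which gave 18 of the 22215 probe sets tested. Of the 18, 14 carry 1 gene symbol, and 4 are annotated to SOD2 together with the overlapping noncoding gene SOD2-OT1 and are named by both. Levels come from Affymetrix arrays of K562, an established human leukaemia line that carries the BCR-ABL1 kinase. The 24 imatinib samples were exposed to 1 micromolar imatinib, an inhibitor of that kinase, for 24 hours, and the 24 mock samples received mock treatment. Both treatments are present, with 3 samples each, in 8 sets labelled A to H, whose meaning the labels leave unstated. All values are log2 levels as deposited, and sets lie on different scales, with array means from 5.88 to 7.61. Levels were therefore compared only within a set. Where changes are compared between sets, the part of these scales was not tested.

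RNA of the mock samples came from Trizol plus an RNeasy column and RNA of the imatinib samples from the column without Trizol, so treatment and isolation cannot be told apart. Array means differed by at most 0.053 log2 within a set. The difference between the 3' and 5' control probe sets of ACTB, a measure of RNA integrity, changed by -0.072 to 0.44 log2 after imatinib over the sets. It was above 0 in 6 of 8 sets, and in 4 every imatinib sample lay above every mock sample. That of GAPDH changed by -0.093 to 0.15, with imatinib samples all above mock in 2 sets and all below in 1. The part of these shifts in the results was not tested. A listed gene counts as measured here if it has a probe set with 1 gene symbol. Genes read only by probe sets with several symbols are left out. Of 13 listed K562 and erythroid markers 9 were measured, all of them no dimmer than the median probe set. All 9 rose, with a median of 2.22. These ranged from TFRC, the transferrin receptor, at 0.21 to ALAS2, an enzyme of heme synthesis, at 4.91. Their part in the changes below was not tested, and in such bulk samples fewer cells of a kind and less RNA per cell cannot be told apart. Of 6 megakaryocyte markers, all that bright, 4 rose, with a median of 0.12 and a range from 0.043 for ITGB3 to 2.39 for TUBB1, a platelet tubulin called higher in 8 of 8 sets. Of 5 T cell markers 3 were that bright, 2 rose and 1 fell: CD3D, a subunit of the T cell receptor complex, fell by 1.73 and was called lower in 8 of 8 sets, while CD3E rose by 0.17 and CD5 by 0.22. Of 4 B cell markers 2 were that bright and 3 rose, by at most 0.13. Of 6 monocyte and granulocyte markers none was that bright, 1 rose and 1 fell, the latter LYZ, which fell by 0.44. Of 5 fibroblast and epithelial markers 4 were that bright, 2 rose and 1 fell, with changes between -0.14 and 0.19. The part of these markers in the results was not tested either.

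Superoxide, a by-product of respiration, is turned into hydrogen peroxide by superoxide dismutases. Catalase, peroxiredoxins and glutathione peroxidases then remove the peroxide, the peroxiredoxins with electrons from thioredoxin and its reductase, the glutathione peroxidases with glutathione. Several of these genes are known targets of the transcription factor NRF2, while catalase and peroxiredoxin 2 are abundant proteins of red cells.

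The 10 genes went in different directions after imatinib. Catalase (CAT) and peroxiredoxin 2 (PRDX2) rose, thioredoxin reductase 1 (TXNRD1), the glutathione synthesis subunit GCLM and peroxiredoxin 1 (PRDX1) fell, and SOD1, GPX1, GPX4 and HMOX1 did not pass the test. The SOD2 probe sets disagreed. In the combined limma fit of 24 against 24 samples, with a Benjamini-Hochberg adjusted p threshold of 0.05, 7 of the 18 probe sets were higher, 5 were lower and 6 were not called. Of all probe sets 65.2% were called, 39.3% higher and 25.8% lower, so shares of 38.9% and 27.8% among the 18 are near the background and say nothing particular about these genes. The median change of the 18 was 0.039, against 0.046 over all probe sets. At least 2-fold higher were 2 of the 18, both of CAT, against 1.49% of all probe sets, and at least 2-fold lower were TXNRD1 and GCLM, against 2.14%.

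**Figure D1:**
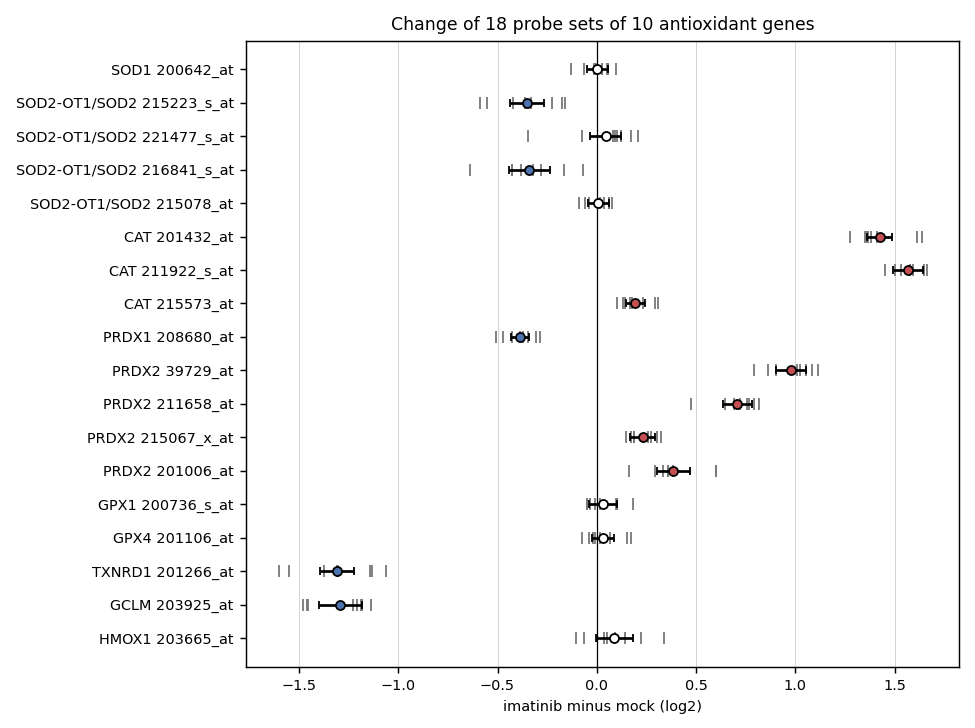
Change after imatinib (imatinib minus mock, log2, x axis) of each of the 18 probe sets; circles are the combined change of 24 against 24 samples with its 95% confidence interval, filled red where called higher, blue where called lower and white where not called, and grey ticks are the changes in the 8 sets. The bright CAT probe sets sit near 1.43 and 1.57, and TXNRD1 and GCLM near -1.31 and -1.29.

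Each set fitted alone, 3 samples against 3, called 9 to 13 of the 18 probe sets. Set A called 6 higher and 3 lower, against 13.6% and 14.7% of all probe sets. Set B called 6 and 5 (background 27.8% and 19.9%), and set C 7 and 6 (18.9% and 20.1%). In set D 5 were higher and 5 lower, where 20.9% and 18% of all probe sets were. Set E had 5 and 4 (7.24% and 12.1%), set F 5 and 4 (7% and 9.47%), set G 6 and 4 (11.5% and 16%), and set H 6 and 3 (12.3% and 11.8%). In all 8 sets 4 probe sets were called higher, the brightest and second brightest of CAT and of PRDX2, against 3.94% of all probe sets, and 3 were called lower, those of PRDX1, TXNRD1 and GCLM, against 6.57%. The calls of TXNRD1, GCLM and the 4 higher probe sets were kept in every set under each alternative run, whereas PRDX1 lost its call in sets F and G under some. The same 7 were the ones whose mock and imatinib samples did not overlap in any set, which held for 5.43% of all probe sets upward and 8.6% downward. In single sets, from A to H in order, 20.6%, 37.3%, 27.8%, 33.7%, 18.4%, 13%, 18.5% and 19.2% of all probe sets had every imatinib sample above every mock sample. The reverse held for 19.9%, 22.2%, 24.4%, 20.9%, 17.2%, 15.9%, 22.7% and 16.6%. None of the 18 was called higher in a set and lower in another, a combination found for 0.302% of all probe sets. Without mock replicate 2 the count of higher calls in set C was 4 in place of 7. In sets F and G the count of lower calls was 2 in place of 4 when single samples were left out: any mock replicate or imatinib replicate 1 or 2 in F, and mock replicate 1 or any imatinib replicate in G. The calls lost there were those of PRDX1 and of the SOD2 and SOD2-OT1 probe set 215223_s_at.

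**Figure D2:**
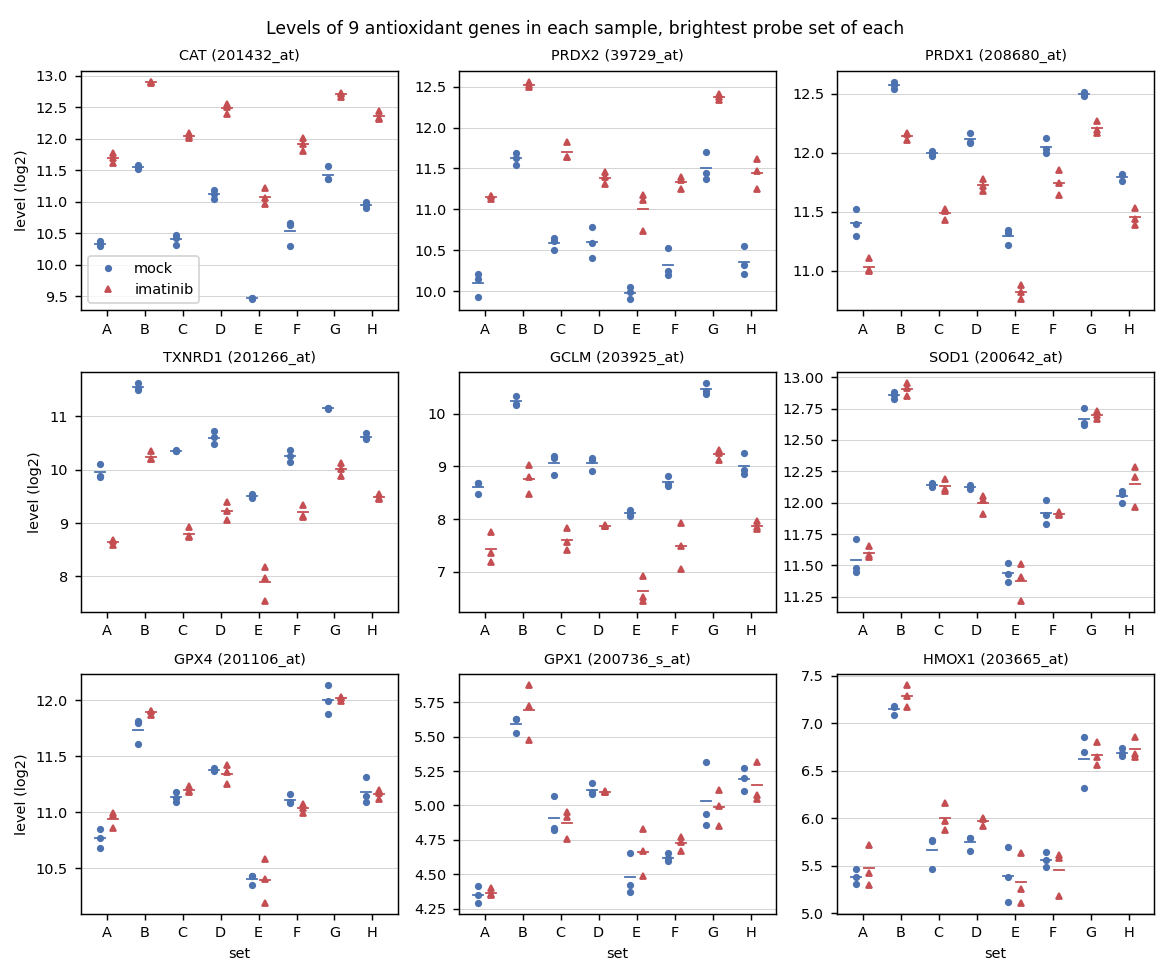
Log2 level (y axis) in every sample of sets A to H (x axis) for the brightest probe set of 9 genes; blue circles are mock samples, red triangles imatinib samples, and short lines the means of 3. Imatinib samples lie above mock in every set for CAT and PRDX2 and below in every set for PRDX1, TXNRD1 and GCLM, while SOD1, GPX4, GPX1 and HMOX1 overlap in most sets. Scales differ between sets, so heights are to be compared within a set.

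CAT (chr11:34438934-34472060, GRCh38.p14), the peroxisomal enzyme that splits hydrogen peroxide into water and oxygen, had the largest rise of the 10 genes. In set C, where the change of its probe set 201432_at was largest, the mock samples were at 10.32, 10.43 and 10.47 and the imatinib samples at 12.01, 12.04 and 12.09. In set G, where it was smallest, mock samples were at 11.36, 11.56 and 11.36 and imatinib samples at 12.73, 12.67 and 12.71. The lowest imatinib sample was above the highest mock sample in both. Over the sets the changes were 1.36, 1.35, 1.64, 1.36, 1.61, 1.38, 1.28 and 1.41 from set A to set H in order. The combined change was 1.43 ± 0.03 log2 (SE, n = 24 per treatment), or 2.69-fold (limma adjusted p = 6.95e-38). The set-by-treatment test did not call 201432_at (limma adjusted p = 0.101), but did after quantile normalization within sets (0.0011). A further bright probe set, 211922_s_at, rose by 1.57 ± 0.04, between 1.45 in set G and 1.66 in set C. The remaining CAT probe set, 215573_at, lies at percentile 2.91 of level, with 3.79 in mock samples, and rose by 0.19 (limma adjusted p = 2.98e-10); set D was the 1 set in which its groups overlapped, and all 4 of its calls in single sets, A, B, G and H, were lost without some single samples.

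PRDX2 (chr19:12796823-12801800) encodes a cytosolic peroxiredoxin, which reduces hydrogen peroxide with electrons from thioredoxin. Its brightest probe set, 39729_at, rose by 0.98 ± 0.04 log2 (SE, n = 24 per treatment; limma adjusted p = 1.77e-27). In set C the mock samples were at 10.51, 10.61 and 10.65 and the imatinib samples at 11.64, 11.83 and 11.64. In set D, with the smallest change, the mock samples were at 10.79, 10.41 and 10.59 and the imatinib samples at 11.31, 11.46 and 11.40. The groups were apart in every set, with changes of 1.05, 0.90, 1.11, 0.79, 1.03, 1.01, 0.86 and 1.08 from set A to set H in order. The other probe sets of PRDX2 rose less: 211658_at by 0.71, 201006_at by 0.39 and 215067_x_at by 0.23, and all 4 were above 0 in each of the 8 sets. Fitted alone, the sets called 215067_x_at in 2 of 8 and 201006_at in 6 of 8. The x in the name of 215067_x_at is the array maker's mark for probes that may share sequence with other genes, and how much signal it shares was not tested.

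PRDX1 (chr1:45511051-45522890), the other abundant cytosolic peroxiredoxin, went the opposite way. In set C its mock samples were at 11.98, 12.01 and 12.00 and its imatinib samples at 11.52, 11.43 and 11.51. In set G, where the fall was smallest, mock samples were at 12.50, 12.52 and 12.48 and imatinib samples at 12.19, 12.27 and 12.17. Every imatinib sample was below every mock sample of its set. It fell by 0.39 ± 0.02 log2 (SE, n = 24 per treatment; limma adjusted p = 2.35e-20), and the 95% intervals of PRDX1 (-0.43 to -0.34) and PRDX2 (0.90 to 1.06) lie on opposite sides of 0. Set changes of PRDX1 were between -0.51 and -0.29. Its call in set F was lost in 7 of 12 alternatives, with centred arrays (limma adjusted p = 0.0729), with the replicate block (0.0704) and without any of 5 single samples, and its call in set G in 5 of 12, with the replicate block (0.0944) and without any of 4 single samples.

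TXNRD1 (chr12:104215779-104350307), the cytosolic selenoenzyme that recharges thioredoxin with NADPH, had the largest fall, close to that of GCLM. In set E its mock samples were at 9.49, 9.55 and 9.46 and its imatinib samples at 8.18, 7.54 and 7.97. In set F mock samples were at 10.37, 10.26 and 10.15 and imatinib samples at 9.34, 9.12 and 9.13. The groups were apart in each set, with changes of -1.31, -1.30, -1.55, -1.37, -1.60, -1.06, -1.14 and -1.13 from set A to set H in order. The combined fall was to a level that mock samples exceeded 2.48-fold: it fell by 1.31 ± 0.04 log2 (SE, n = 24 per treatment; limma adjusted p = 1.21e-30). By the test of the set-by-treatment terms its change differed between sets (limma adjusted p = 0.041), as for 2 of the 18 probe sets and 7.2% of all. That call was lost after quantile normalization within sets (adjusted p = 0.0569), with samples of the same number as a block (0.0612), and without replicate 1 (0.115), 2 (0.0655) or 3 (0.802).

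GCLM (chr1:93885199-93909430), the modifier subunit of glutamate cysteine ligase, the first enzyme of glutathione synthesis, fell by about as much. In set E the mock samples were at 8.11, 8.17 and 8.06 and the imatinib samples at 6.93, 6.45 and 6.53. In set H, with the smallest change, mock samples were at 8.85, 9.26 and 8.92 and imatinib samples at 7.85, 7.81 and 7.96. No imatinib sample reached a mock sample of its set. Changes were -1.18, -1.46, -1.45, -1.19, -1.48, -1.21, -1.23 and -1.14 from set A to set H in order. The combined change was -1.29 ± 0.05 log2 (SE, n = 24 per treatment; limma adjusted p = 2.75e-26), so mock samples had 2.45-fold the level.

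RefSeq promoter windows (GRCh38.p14, 250 bases before to 50 after the start) of 7 of the 10 genes, SOD2, CAT, PRDX2, GPX1, GPX4, TXNRD1 and GCLM, were searched on both strands for the core letters of the antioxidant response element, TGACNNNGC, at which NRF2 is known to bind. TXNRD1 held 2 matches and GCLM 1, and the other 5 windows held none; of 35116 RefSeq windows of 300 bases, 13.3% held a match. Matches of the GATA core GATAA were in GPX4 and TXNRD1 (22.7% of all windows), and the E-box CACGTG was in GPX1 (7.26%). No window was available for SOD1, HMOX1 and PRDX1, the last of which also fell. For each gene 1 window was searched, and other transcript starts were not. The window of SOD2 has its first 260 bases at chr6:159727375-159727634 on the minus strand. It lies inside the interval of that gene (chr6:159669069-159762281), not at its end. The windows of SOD2, GPX1 and GPX4 are not shown. Those of the pair that fell with a match are shown beside those of CAT and PRDX2, which rose. They run 5′ to 3′ along the gene, from 250 bases before to 10 bases after the start, with the letters of the antioxidant response element core, or its reverse complement, in capitals.
TXNRD1, chr12:104215529-104215788, plus strand: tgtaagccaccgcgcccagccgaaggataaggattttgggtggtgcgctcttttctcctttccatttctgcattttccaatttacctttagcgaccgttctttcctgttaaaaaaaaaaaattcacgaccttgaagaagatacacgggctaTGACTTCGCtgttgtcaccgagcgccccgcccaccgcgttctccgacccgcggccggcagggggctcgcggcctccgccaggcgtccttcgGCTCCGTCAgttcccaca
GCLM, chr1:93909421-93909680, minus strand: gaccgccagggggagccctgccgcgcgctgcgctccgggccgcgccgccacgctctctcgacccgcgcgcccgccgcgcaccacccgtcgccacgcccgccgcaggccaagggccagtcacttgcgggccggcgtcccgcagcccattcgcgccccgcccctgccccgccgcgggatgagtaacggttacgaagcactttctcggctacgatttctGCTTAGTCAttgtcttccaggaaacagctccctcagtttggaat
CAT, chr11:34438684-34438943, plus strand: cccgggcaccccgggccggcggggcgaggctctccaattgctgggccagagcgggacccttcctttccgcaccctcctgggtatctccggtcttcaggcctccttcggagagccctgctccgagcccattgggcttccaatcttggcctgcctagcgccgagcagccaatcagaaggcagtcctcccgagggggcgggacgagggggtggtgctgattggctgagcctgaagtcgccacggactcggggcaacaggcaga
PRDX2, chr19:12801791-12802050, minus strand: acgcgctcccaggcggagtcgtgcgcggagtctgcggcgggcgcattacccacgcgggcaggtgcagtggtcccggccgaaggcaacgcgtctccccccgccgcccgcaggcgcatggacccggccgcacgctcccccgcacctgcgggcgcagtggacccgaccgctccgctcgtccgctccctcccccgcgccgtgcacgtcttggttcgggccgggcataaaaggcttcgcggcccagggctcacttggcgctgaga
Counted from the start of the gene, the TXNRD1 matches cover bases -99 to -91 on the gene's own strand, with the letters TGACTTCGC, and -8 to 1 on the opposite strand, with the letters TGACGGAGC. The GCLM match covers bases -34 to -26 on the opposite strand and reads TGACTAAGC. A match of letters is a description of the sequence and does not show a bound factor. Whether matches go with the direction of change was not tested.

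SOD1 (chr21:31659693-31668931), the copper and zinc superoxide dismutase of the cytosol, had a combined change of 0.0026 ± 0.026 log2 (SE, n = 24 per treatment; limma adjusted p = 0.936), with a 95% interval of -0.050 to 0.055. Its largest change in a single set was that of D, where mock samples were at 12.12, 12.11 and 12.14 and imatinib samples at 12.02, 11.91 and 12.06. In set H, at the other end, mock samples were at 12.00, 12.09 and 12.07 and imatinib samples at 11.96, 12.28 and 12.20. Set D was the 1 set without overlap, its change was not called, and 4 sets had a change above 0 and 4 below. GPX4 (chr19:1103994-1106779), the selenoenzyme that reduces lipid peroxides in membranes, changed by 0.033 ± 0.027 (limma adjusted p = 0.288; interval -0.022 to 0.088), also with 4 sets above 0 and 4 below. Its groups were apart upward in A and B and downward in F, and no set called it. In set A its mock samples were at 10.85, 10.77 and 10.68 and its imatinib samples at 10.99, 10.86 and 10.98, while in set F mock samples were at 11.08, 11.16 and 11.09 and imatinib samples at 11.07, 11.04 and 11.00. After quantile normalization within sets both genes were called higher, SOD1 by 0.096 (limma adjusted p = 9.9e-05) and GPX4 by 0.12 (limma adjusted p = 0.0001).

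GPX1 (chr3:49357176-49358353), the glutathione peroxidase of cytosol and mitochondria, was dim on these arrays, at percentile 17.2 of all probe sets, so a change could be missed. Its level was 4.91 in mock and 4.94 in imatinib samples, a change of 0.032 ± 0.035 log2 (SE, n = 24 per treatment; limma adjusted p = 0.422). Set E had the largest change, with mock samples at 4.65, 4.42 and 4.37 and imatinib samples at 4.49, 4.83 and 4.67. These overlap, as they did in all sets but F.

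HMOX1 (chr22:35381096-35394207), the inducible heme oxygenase, which opens the heme ring and is a known NRF2 and BACH1 target, was at percentile 41.6 of level. In set C mock samples were at 5.76, 5.47 and 5.78 and imatinib samples at 5.97, 5.88 and 6.17, and in set F mock samples were at 5.64, 5.49 and 5.56 and imatinib samples at 5.62, 5.58 and 5.19. Its groups did not overlap in C and D, the sets that called it higher, by 0.34 and 0.22, calls that were each lost in 6 of 11 alternatives. The combined change was 0.089 ± 0.047 log2 (SE, n = 24 per treatment; limma adjusted p = 0.0937), with an interval of -0.0061 to 0.18. It was called higher without set E (0.11, adjusted p = 0.0314), without set F (0.12, adjusted p = 0.0337) and without the samples numbered 3 (0.14, adjusted p = 0.0188). Sets E and F are those in which its change was below 0.

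SOD2 (chr6:159669069-159762281) encodes the manganese superoxide dismutase of mitochondria, and the RefSeq table places the noncoding gene SOD2-OT1 (chr6:159760258-159762332) over 2024 bases of it. None of the 4 probe sets can be assigned to 1 of the genes from the annotation. Probe set 215223_s_at fell by 0.35 ± 0.04 log2 (SE, n = 24 per treatment; limma adjusted p = 4.17e-10). In set D its mock samples were at 7.09, 6.91 and 7.09 and its imatinib samples at 6.31, 6.54 and 6.47, and in set H they were at 7.86, 8.13 and 7.84 against 7.51, 7.92 and 7.87. Set H was the 1 set in which the groups overlapped, and 6 sets called it lower; the calls in B, E, F and G were each lost when single samples were left out. The dimmer 216841_s_at fell by 0.34 ± 0.05 (limma adjusted p = 1.68e-07), below 0 in 8 of 8 sets and called lower in 3.

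Probe set 221477_s_at, at percentile 70.5 of level, was not called. Its combined change was 0.045 ± 0.039 log2 (SE, n = 24 per treatment; limma adjusted p = 0.313), and the change differed between sets (limma adjusted p = 0.0476 for the set-by-treatment terms). That call was lost with centred arrays (adjusted p = 0.0576), with the replicate block (0.0727), with the trend model of the variance (0.0563) and without replicate 1 (0.208), 2 (0.0882) or 3 (0.722). In set C its mock samples were at 7.24, 7.37 and 7.30 and its imatinib samples at 6.90, 7.15 and 6.83, a called fall, while in set F mock samples were at 6.50, 6.66 and 6.43 and imatinib samples at 6.59, 6.65 and 6.96. In set C every imatinib sample was below every mock sample, in sets B and G every imatinib sample was above every mock sample without a call, and 6 of 8 sets had a change above 0. The call in set C was lost without any of 4 single samples. Without set C it was called higher, by 0.10 (adjusted p = 0.0117). Probe set 215078_at, at percentile 4.38 of level, changed by 0.0081 ± 0.027 (limma adjusted p = 0.804).

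**Figure D3:**
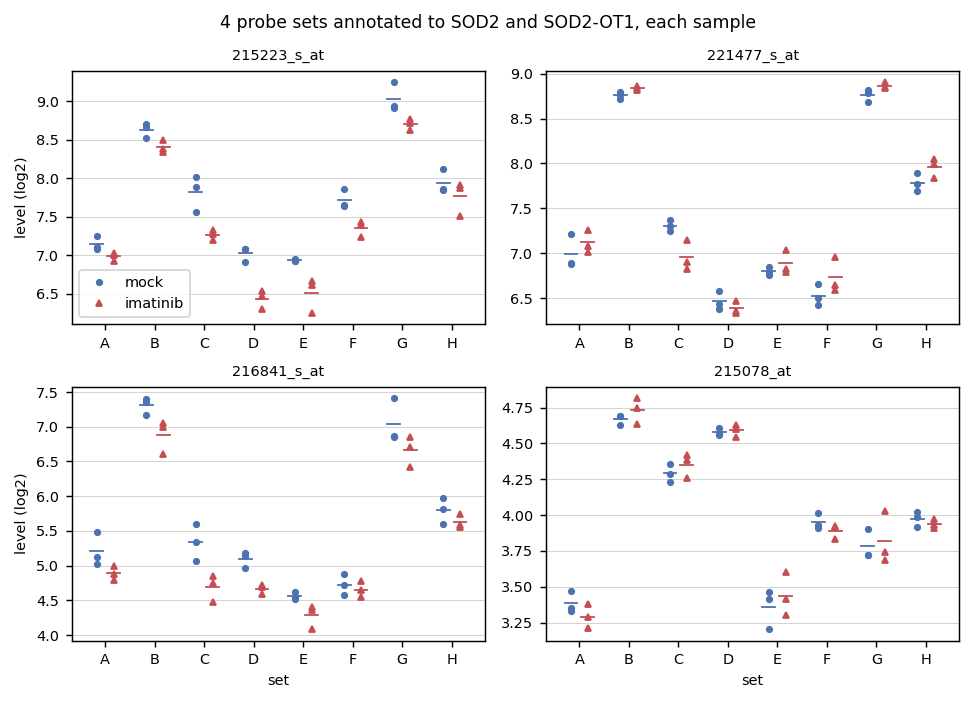
Log2 level (y axis) in every sample of sets A to H (x axis) for the 4 probe sets annotated to SOD2 and SOD2-OT1; blue circles are mock samples, red triangles imatinib samples, short lines the means of 3. Imatinib means lie below mock in 8 of 8 sets for 215223_s_at and 216841_s_at, and above mock in 6 of 8 for 221477_s_at.

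The other genes of the pathway were read from the same fit, each by its brightest probe set with 1 gene symbol. Of 76 listed, 59 had such a probe set and count as measured. Among them 24 rose, 30 fell and 5 were not called, with a median of -0.11. Over all 11963 genes 41.6% were called higher and 27.1% lower, with a median of 0.053. Of the 59 genes, 55 were no dimmer than the median probe set, against 6974 of the 11963. The shares called are therefore not like for like, and the part of level in them was not tested. Up to 3 called genes per role are named, those with the largest change among genes no dimmer than the median probe set. Of these, the set-by-treatment test called GLRX, SLC7A11, NQO2, GSTM2, MGST3 and IDH1, against 7.2% of all probe sets. Its limma adjusted p ran from 0.00012 for GLRX, with set changes between 1.22 and 2.32, to 0.045 for IDH1. These calls were not run under the alternatives.

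Of the enzymes closest to the 10 genes, the 3 measured peroxiredoxins outside them all fell. PRDX4, the peroxiredoxin of the endoplasmic reticulum, fell by 0.71, the mitochondrial PRDX3 fell by 0.27 and PRDX6, which uses glutathione, fell by 0.17. A further probe set of PRDX3 had a change of 0.12 in the other direction. CCS, the chaperone that loads copper into SOD1, rose by 0.53, above 0 in 8 of 8 sets, and the extracellular SOD3 rose by 0.19. GPX2, the glutathione peroxidase best known from gut epithelium, rose by 0.16.

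In the thioredoxin system 3 of 4 measured genes outside the 10 rose and 1 fell. Thioredoxin itself (TXN), the substrate of TXNRD1, fell by 0.65, in 8 of 8 sets. TXNIP, which binds and inhibits thioredoxin, rose by 0.67 and the mitochondrial thioredoxin TXN2 by 0.59.

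Of 10 genes of glutathione synthesis and recycling 3 rose and 7 fell, with a median of -0.41. SLC7A11, which imports cystine for glutathione synthesis, fell by 1.30, and CHAC1, which degrades glutathione, fell by 1.08. The glutaredoxin GLRX rose by 1.76. GCLC, the catalytic partner of GCLM, rose by 0.49 ± 0.05 log2 (limma adjusted p = 1.79e-13), above 0 in 8 of 8 sets; it is named outside the naming rule, after its values were seen. Of 10 glutathione transferases 7 rose and 2 fell, among them MGST3, a membrane enzyme with peroxidase activity, by 1.69, GSTM2 by 0.87 and GSTM3 by 0.62. Probe sets of the GSTM genes can share signal, since the genes are similar in sequence.

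Among 8 measured regulators of NRF2, 3 rose, 3 fell and 2 were not called. NFE2L2, which encodes NRF2, fell by 1.31 ± 0.06 log2 (limma adjusted p = 1.33e-25), below 0 in 8 of 8 sets, from 9.38 to 8.07. CUL3, the ubiquitin ligase scaffold that works with KEAP1 against NRF2, fell by 0.58, although its other probe sets lay between -0.33 and 0.094. BACH1, a repressor of NRF2 target genes such as HMOX1, rose by 0.55.

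Beside HMOX1, 2 of 6 measured genes of heme breakdown, iron storage and quinone reduction rose and 4 fell. BLVRB, a biliverdin reductase abundant in red cells, rose by 1.83. The quinone reductases NQO2, itself a known imatinib binding protein, and NQO1, a known NRF2 target, fell by 2.45 and fell by 1.38. Of 5 measured genes that supply NADPH, 4 fell and 1 was not called: the malic enzyme ME1 fell by 0.77, with other probe sets between -0.97 and 0.022, the pentose phosphate enzyme PGD fell by 0.53 and IDH1 fell by 0.34.

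Like GPX1, GPX4 and TXNRD1, the genes of the next list encode proteins with selenocysteine. Of 5 measured further selenoproteins 2 rose and 3 fell; SELENOT fell by 0.62, the methionine sulfoxide reductase MSRB1 fell by 0.54 and SELENOF fell by 0.29. All 3 measured genes of selenoprotein synthesis fell, among them SEPHS1, which fell by 0.43, and the selenophosphate synthetase SEPHS2, which fell by 0.34. Other probe sets of SEPHS1 lay between -0.40 and 0.054.

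**Figure D4:**
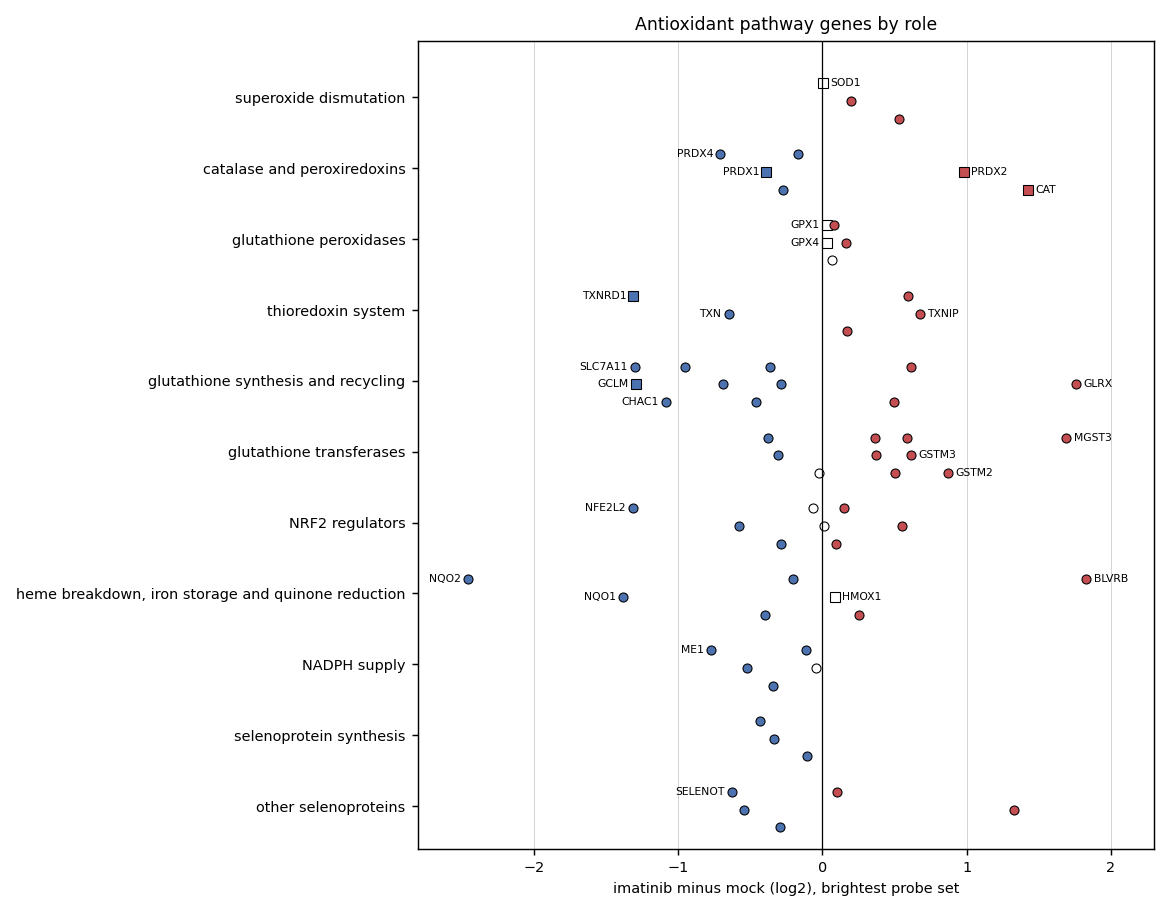
Change after imatinib (imatinib minus mock, log2, x axis) of the brightest probe set of each measured pathway gene, grouped by role (y axis); squares are genes of the 10 described, circles other genes, red where called higher, blue where called lower and white where not called. NQO2 lies lowest, at -2.45. TXNRD1, GCLM, NFE2L2, SLC7A11 and NQO1 lie between -1.38 and -1.29, and CAT, GLRX, MGST3 and BLVRB between 1.43 and 1.83. SOD2 is absent, since each of its probe sets carries several symbols. The vertical offset within a role carries no value.

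For the members that changed by at least 0.5 log2, the genes with the most similar values were found by Pearson correlation over the 48 samples after the mean of each set was subtracted. These samples share the treatment contrast, so the correlations describe it and have no test. CAT was nearest to NARF and MYL4 (r = 0.99 for each), which rose by 1.95 and 2.43. PRDX2 was nearest to TFR2 and UROD (r = 0.99 for each), which rose by 1.80 and 0.93. TXNRD1 was nearest to MYB and IER2 (r = 0.99 for each), which fell by 1.96 and fell by 1.51, and GCLM to YES1 and GBE1 (r = 0.98 for each), which fell by 1.82 and fell by 1.08.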

How the data were processed

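The authors deposited 1 log2 value per probe set and sample for 22283 probe sets on 48 arrays (the log base was inferred from their range). How probes were corrected, summarized and normalized is not given in the sources used here. Precision is limited by the number of arrays. The deposited values were used without further scaling. The 68 control probe sets were kept out. Symbols come from the platform annotation, updated by gene number to RefSeq (GRCh38.p14): 19065 probe sets had 1 symbol, of which 19053 matched, 1043 had several and 2107 had none. Where 1 value per gene was needed, the brightest probe set with 1 symbol was used. Genes without such a probe set were not counted as measured.

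Differences were tested two-sided with limma 3.58.1 in R 4.3.3 (lmFit, eBayes; Benjamini-Hochberg over all 22215 probe sets, threshold 0.05): a combined fit with set as a factor, each set alone, and a test of 7 set-by-treatment terms. The alternatives were array centring, quantile normalization, a level filter, a block, another variance model, and leaving out sets or samples. On simulated data of 22215 probe sets the combined fit recovered 49 of 50 changes of 0.25 log2. The fit of set A recovered 1 of 50 at 0.25, 28 at 0.5 and 49 at 1. The set-by-treatment test recovered 1 of 50 at 0.25, 12 at 0.5 and 48 at 1. Only 50 probe sets per size were changed there, with independent normal noise, and for the set-by-treatment test in set C alone. In the data 65.2% of probe sets were called by the combined fit, so the adjusted threshold is more lenient than in the simulation. These recoveries therefore do not give the share of changes found in the data. The labels do not tell whether replicates are separate cultures, so the p-values cover only the spread among these arrays, possibly technical. The genes, lists and rules for naming genes (every probe set of the 10 genes; up to 3 called genes per role) were chosen with earlier results of these data known. Figures were drawn with matplotlib 3.10.9.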

Additional observations from a re-analysis of the deposited data

Results flagged for a closer look

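The change after imatinib differed between sets for TXNRD1 201266_at (set-by-treatment adjusted p = 0.041 in limma), with changes between -1.60 log2 in set E and -1.06 in set F; quantile normalization (0.0569), the replicate block (0.0612) and leaving out any replicate number ended that call. It also differed for the SOD2-OT1/SOD2 probe set 221477_s_at (adjusted p = 0.0476), with changes between -0.35 in set C and 0.21 in set F; centring (0.0576), the replicate block (0.0727), the trend model (0.0563) and leaving out any replicate number ended that call.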

How the results depend on the processing

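In the combined fit the counts of 7 higher and 5 lower probe sets stayed within 7 to 8 and at 5 when single sets or replicate numbers were left out; they were 9 and 5 after quantile normalization and 6 and 4 among brighter probe sets. Every change of CAT, PRDX2, PRDX1, TXNRD1, GCLM, 215223_s_at and 216841_s_at kept its direction and call in each combined alternative run. All 29 pathway genes named by the rule did too, in the settings that tested them. The changes of GCLC, MAFF, HMOX2 and SELENOP, named outside the rule, were not followed singly across the alternatives. Directions turned only for changes near 0, none called then or before. With centred arrays these were SOD1 at -0.035, 215078_at at -0.030, GPX1 at -0.0059 and GPX4 at -0.0046. After quantile normalization they were 215078_at at -0.0082 and GPX1 at -0.0043. SOD1 was at -0.0050 without set A, -0.0043 without B, -0.0012 without G, -0.011 without H and between -0.021 and 0.021 without a replicate number, and 215078_at at -0.0019 without E and between -0.011 and 0.027 without a replicate number. The count of set-by-treatment calls, 2, was 1 with centred arrays and with the trend model, where TXNRD1 kept its call and 221477_s_at lost it, 2 after quantile normalization, where TXNRD1 lost its call and CAT 201432_at gained one (adjusted p = 0.0011), 0 with the replicate block, and 0 without any replicate number, where fewer samples enter. Same-numbered mock and imatinib samples of a set correlated in their deviations at over 0.1 in 7 of 24 pairs, and 17 of 48 samples correlated best with their own number, so the numbers were not taken as pairs. The replicate block left the counts of 7 and 5 in place and took the lower calls of set G from 4 to 2. Centring took those of set F from 4 to 2. The calls lost were those of PRDX1 and 215223_s_at. Without single samples, set C had 4 to 7 higher calls, and sets F and G had 2 to 3 and 2 to 4 lower calls. The cause of these shifts was not tested. GPX1, HMOX1 and 215078_at, which the combined fit did not call, lie below the median level, where a change could be missed. The probe sets 216841_s_at and 215573_at also lie below it. The combined fit called both, but a change in a single set could be missed.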

Other observations

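Some pathway genes have probe sets that differ in the size or sign of their change. MAFF, which encodes a small partner protein of NRF2, fell by 0.29 by its brightest probe set, while a dimmer one fell by 2.27. SLC7A11 fell by 1.30, and its dimmer probe sets lay between -1.93 and -0.66. HMOX2, the constitutive heme oxygenase, fell by 0.40, while its other probe set had a change of -0.047. SELENOP, a selenium carrier of plasma at percentile 39.3 of level, rose by 1.33 and was called higher in 8 of 8 sets. By the set-by-treatment test the changes of MAFF (limma adjusted p = 0.0242) and SELENOP (limma adjusted p = 0.000226) differed between sets. MAFF, HMOX2 and SELENOP are named here after their values were seen.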
